A study of Mus musculus with 12 samples.

Results

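Cholesterol and fatty acid genes were read in mouse cortical neuronal cultures under lasting interferon-gamma exposure. The set held 30 genes: 16 enzymes of the mevalonate and sterol steps, 3 genes of SREBP control, 6 fatty acid enzymes, 4 genes of cholesterol and lipoprotein export, and Ch25h, which makes an oxysterol. They were chosen by symbol, with no measured value in the rule but with earlier results of these data known. Each gene matched 1 of the 43629 gene identifiers of the count table. The data were 6 poly(A) RNA libraries labelled IFNG, with the treatment IFNy, and 6 labelled Control. Per the labels, a lentivirus that overexpresses Ifng was added at 7 days in vitro and the cells were harvested 10 days in vitro later. All 12 libraries carry that same protocol text, so what construct the Control cultures received, if any, is not stated. The sources used here do not give the strain or age of the animals, the promoter of the construct, any pooling of animals, or whether libraries of a group came from separate cultures. The p-values therefore measure the spread between these libraries, which may be technical. Below, n counts libraries, and IFNG cultures or Control cultures stands for the libraries of that label.

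Cells make cholesterol from acetyl-CoA through mevalonate, squalene and a chain of sterol intermediates. The transcription factor SREBP2 (gene Srebf2) switches these enzymes on when membrane sterol is low, SREBP1 (Srebf1) acts more on fatty acid synthesis, and Insig1 holds both in the endoplasmic reticulum when sterol is high. Liver X receptors (LXR), which bind oxysterols, switch on export genes such as Abca1 and also Srebf1. In the brain, astrocytes release cholesterol on Apoe particles that neurons take up.

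The export genes Abca1, Apoe and Clu and the regulator Srebf1 were higher in IFNG cultures, by 2.53-fold to 4.47-fold, while no synthesis enzyme passed the edgeR test with all libraries. Of the 29 members with enough counts to be tested, 7 were higher and 0 lower (edgeR quasi-likelihood test, Benjamini-Hochberg adjusted p under 0.05 over 15241 genes). That is 24.1% of the members, against 24.1% of all genes tested, so the count of calls as such was at the background. By direction, 24.1% of the members were higher against 14.3% of all genes, and 0% were lower against 9.79% of all genes. The levels of 5 members (17.2%) did not overlap between the groups, against 12.8% of all genes. DESeq2 also called 0 members lower, limma-voom called 1, and 3 had an unadjusted p under 0.05 and a lower level. Without IFNG 3, 8 members were lower. The count was 1, Hmgcs1, without Control 1, with the replicate number as a block and when low genes were kept.

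The libraries held 13875435 to 34239380 counts. Ifng itself stood at 4.98, 11.5 and 17.9 CPM (lowest, median and highest of 6) in IFNG libraries and at 0, 0.0528 and 0.170 CPM in Control libraries, where CPM is the count scaled to the library total after TMM normalization. The groups did not overlap, so the labels matched the transgene. Of 14 neuronal markers, all tested, 6 were lower, and their sum was 4976 to 6295 CPM in IFNG cultures, against 6592 to 7238 CPM in Control cultures. The sum of 18 astrocyte markers was 5398 to 9099 CPM in IFNG cultures, against 3039 to 3327 CPM in Control cultures, and all 16 of them that were tested were higher, by 0.34 to 1.77 on the log2 scale. Gjb6, among the 18, was at 0 in all IFNG libraries. In bulk RNA, a change in the number of cells of a type and a change in RNA per cell cannot be told apart. The sum of 15 microglial and macrophage markers was 6.18 to 12.9 CPM in IFNG cultures, against 6.28 to 12.3 CPM in Control cultures. Tmem119 was at 0 in every Control library and had 3 counts over all IFNG libraries. Of the 3 tested, 1 was higher, P2ry12, with 120 counts over the IFNG libraries and 8 over the Control libraries. Both genes stood near the detection limit. The sum of 10 fibroblast and mural markers was 113 to 153 CPM in IFNG cultures, against 84.9 to 107 CPM in Control cultures, without overlap. Of the 6 of them that were tested, 2 were higher. Of 9 tested oligodendrocyte lineage markers 1 was higher and 2 lower, and the 1 tested endothelial marker did not pass.

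Promoter stretches of 7 members are printed here to show the letters near the starts of genes that moved and of enzymes that did not pass. RefSeq windows (build GRCm38.p6, 250 bases before to 50 after each start) were at hand for 22 members, in 29 windows. On both strands, 5 motifs were searched. These were CACCNCAC for a sterol response element, CCAAT, 2 copies of GGTNA with 5 bases between them for a loose form of the direct repeat that LXR binds, TTCNNNGAA for the interferon-gamma activated site, and 2 copies of GAAA with 2 bases between them for the interferon-stimulated response element. No 2 of these motifs overlapped in a member's window. A match is a description of the letters only.

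The loose LXR repeat was found in 3 members, Abca1, Srebf1 and Fasn, and in 0.72% of all 32851 windows. It reads on the strand opposite to the gene, and Abca1 and Fasn carry the same 15 letters. In Srebf1 it lies before a start inside the gene, downstream of the first one. Each stretch is given 5′ to 3′ on the strand of its gene, with the match in capitals, and all 3 genes lie on the minus strand of the genome, at chr4:53159918-53159992, chr11:60210609-60210683 and chr11:120824728-120824797.
Abca1: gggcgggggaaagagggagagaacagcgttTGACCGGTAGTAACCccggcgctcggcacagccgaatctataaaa
Srebf1: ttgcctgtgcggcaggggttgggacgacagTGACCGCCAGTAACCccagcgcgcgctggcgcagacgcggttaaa
Fasn: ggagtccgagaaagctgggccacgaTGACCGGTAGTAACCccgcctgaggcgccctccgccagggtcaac

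All 13 synthesis enzymes with a window held CCAAT, which the factor NF-Y binds, in at least 1 window. That was 13 of their 16 windows (81.2%), against 37.41% of all windows. The 3 control genes, with Srebf1 among them, also held it, in 4 of 5 windows. It stood in 1 of 3 windows of fatty acid enzymes and in 0 of the 4 windows of export genes. Only 2 export genes had a window. The sterol element letters stood in 2 members, Hmgcs1 and Hsd17b7, and in 6.32% of all windows. Each of the interferon motifs stood in 1 member, Ebp, against 8.3% and 3.44% of all windows. In the stretches below, capitals mark the sterol element in Hmgcs1 (chr13:119690185-119690252, plus strand). They mark CCAAT or its reverse complement in Idi1 (chr13:8885541-8885605, plus strand), Mvd (chr8:122443425-122443502, minus strand) and Lss (chr10:76531523-76531567, plus strand).
Hmgcs1: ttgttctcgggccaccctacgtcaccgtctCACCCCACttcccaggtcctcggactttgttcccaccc
Idi1: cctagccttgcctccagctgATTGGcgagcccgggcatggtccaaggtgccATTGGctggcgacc
Mvd: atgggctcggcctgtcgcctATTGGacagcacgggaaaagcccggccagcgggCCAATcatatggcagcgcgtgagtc
Lss: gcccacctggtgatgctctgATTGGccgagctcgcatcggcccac

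Among the export genes, Clu and Apoe moved furthest. Clu (ENSMUSG00000022037, GRCm38 chromosome 14, 65968483 to 65981547, plus strand) encodes clusterin, a secreted chaperone and apolipoprotein. It stood at 607, 995 and 1630 CPM in IFNG libraries (lowest, median and highest) and at 199, 223 and 292 CPM in Control libraries. Every IFNG library lay above every Control library. Its log2 fold change was 2.16 ± 0.18 (SE; edgeR adjusted p = 1.37e-08), which is above the 1.77 of Vim, the highest of the 16 tested astrocyte markers. Apoe (ENSMUSG00000002985, chromosome 7, 19696109 to 19699188, minus strand) encodes the main apolipoprotein of the brain. It stood at 1006, 1915 and 3511 CPM in IFNG libraries and at 450, 708 and 795 CPM in Control libraries. The groups did not overlap, and the log2 fold change was 1.63 ± 0.23 (edgeR adjusted p = 1.71e-05). Per kilobase of exon, Apoe averaged 961 CPM in IFNG cultures, against 310 CPM in Control cultures, the highest level of the 30 members in the IFNG group and second to Scd2 in the Control group.

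Abca1 (ENSMUSG00000015243, chromosome 4, 53030787 to 53159895, minus strand) loads cholesterol onto lipid-poor apolipoproteins. It stood at 169, 311 and 633 CPM in IFNG libraries and at 125, 129 and 169 CPM in Control libraries. IFNG 3, at 168.7 CPM, lay just under Control 3, at 169.1 CPM, and the other 5 IFNG libraries lay above all Control libraries. The log2 fold change was 1.34 ± 0.21 (edgeR adjusted p = 8.84e-05). Abcg1, which passes cholesterol on to larger particles, stood at 30.9, 34.0 and 44.0 CPM in IFNG libraries and at 22.5, 26.5 and 38.2 CPM in Control libraries. Its groups overlapped and its log2 fold change of 0.36 ± 0.13 did not pass (edgeR adjusted p = 0.0605). It passed without IFNG 3 (0.0458) or without Control 6 (0.00908).

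All 4 export genes were above 0 on the log2 scale, with a median of 1.49, against -0.02 over all genes tested. Astrocyte markers moved with them: the sum over 18 markers was higher in every IFNG library than in any Control library. Clu lay above the log2 fold changes of the tested markers, while Apoe, Abca1 and Abcg1 lay within their range of 0.34 to 1.77. Srebf1, at 1.7685, also lay within it, just under Vim at 1.7725. IFNG 3 was the lowest IFNG library in both Apoe and the astrocyte sum. The part of astrocyte RNA in the rise of the export genes, or of any other gene reported as higher below, was not tested.

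**Figure D1:**
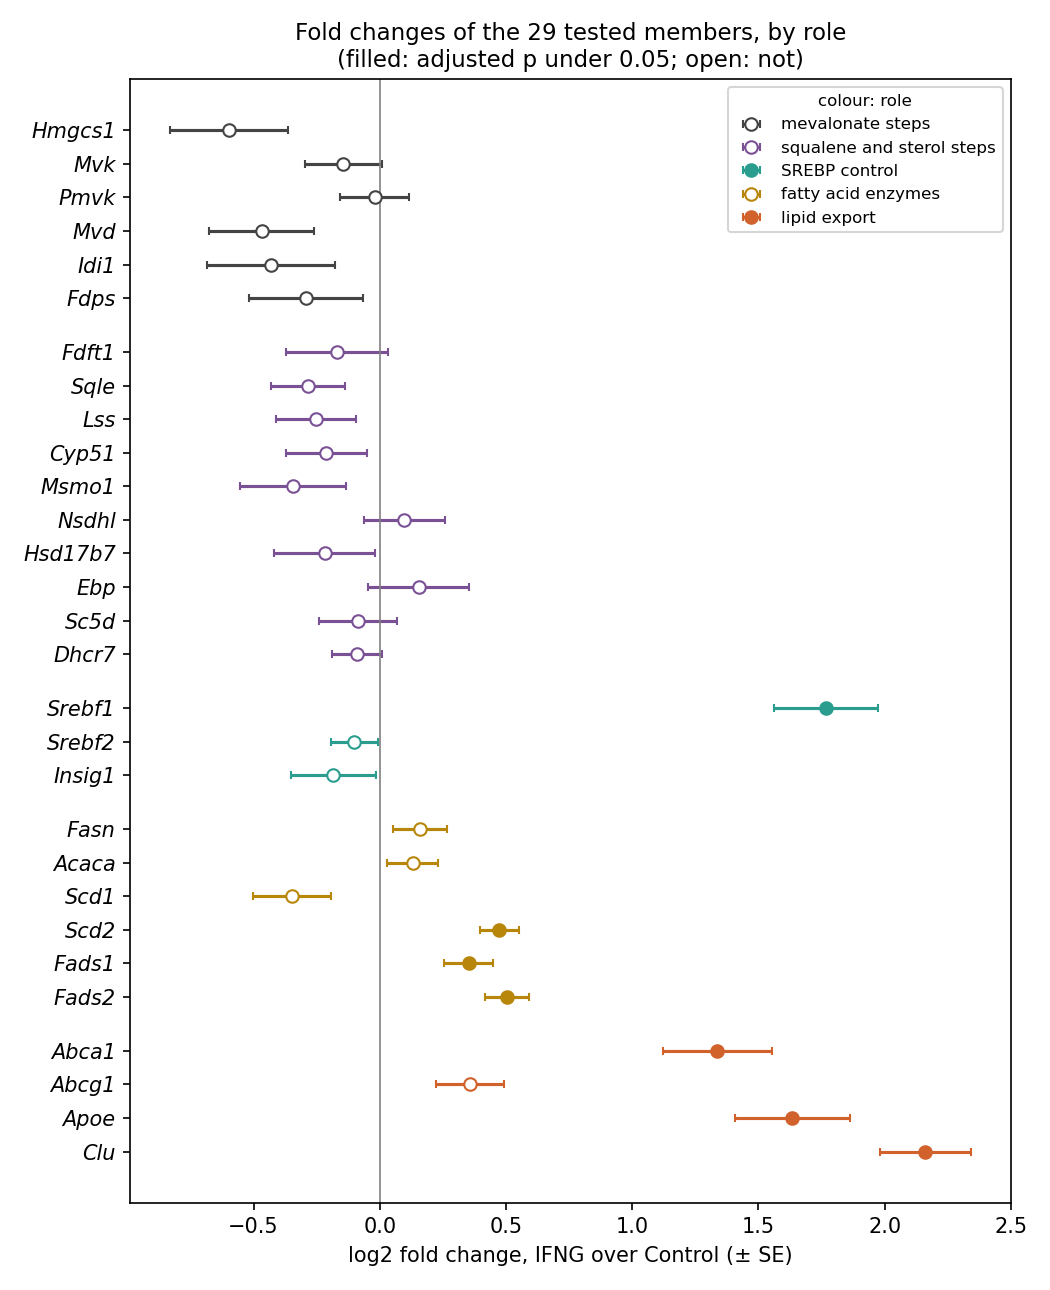
Log2 fold change of IFNG over Control (horizontal axis, ± SE) for the 29 tested members, grouped by role from the mevalonate steps at the top to lipid export at the bottom; filled points passed an adjusted p of 0.05. Srebf1, Abca1, Apoe and Clu lie between 1.34 and 2.16, while 14 of the 16 synthesis enzymes lie below 0 with open points.

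Of the 3 control genes, Srebf1 alone passed the test. Srebf1 (ENSMUSG00000020538, chromosome 11, 60199089 to 60222581, minus strand) stood at 214, 442 and 699 CPM in IFNG libraries and at 115, 134 and 148 CPM in Control libraries. The groups did not overlap, and the log2 fold change was 1.77 ± 0.21 (edgeR adjusted p = 1.77e-06). An exon of Rai1 overlaps it on the opposite strand. The strand setting of the counting is not stated, so reads from the stretch they share cannot be told apart. Rai1 stood at 112 ± 23.1 CPM in IFNG cultures, against 122 ± 25.7 CPM in Control cultures (SD over n = 6 each), with a log2 fold change of -0.11 ± 0.15. Srebf2 stood at 328, 354 and 431 CPM in IFNG libraries and at 349, 374 and 458 CPM in Control libraries. Its groups overlapped. Its log2 fold change was -0.10 ± 0.09 (95% interval -0.31 to 0.11, edgeR adjusted p = 0.484), or 0.01 when library totals left out the genes called higher. Insig1, itself a target of SREBP, stood at 68.0, 92.6 and 150 CPM in IFNG libraries and at 84.5, 117 and 125 CPM in Control libraries. The IFNG libraries spread on both sides of the Control range, and the log2 fold change was -0.18 ± 0.17 (95% interval -0.56 to 0.20; edgeR adjusted p = 0.480).

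**Figure D2:**
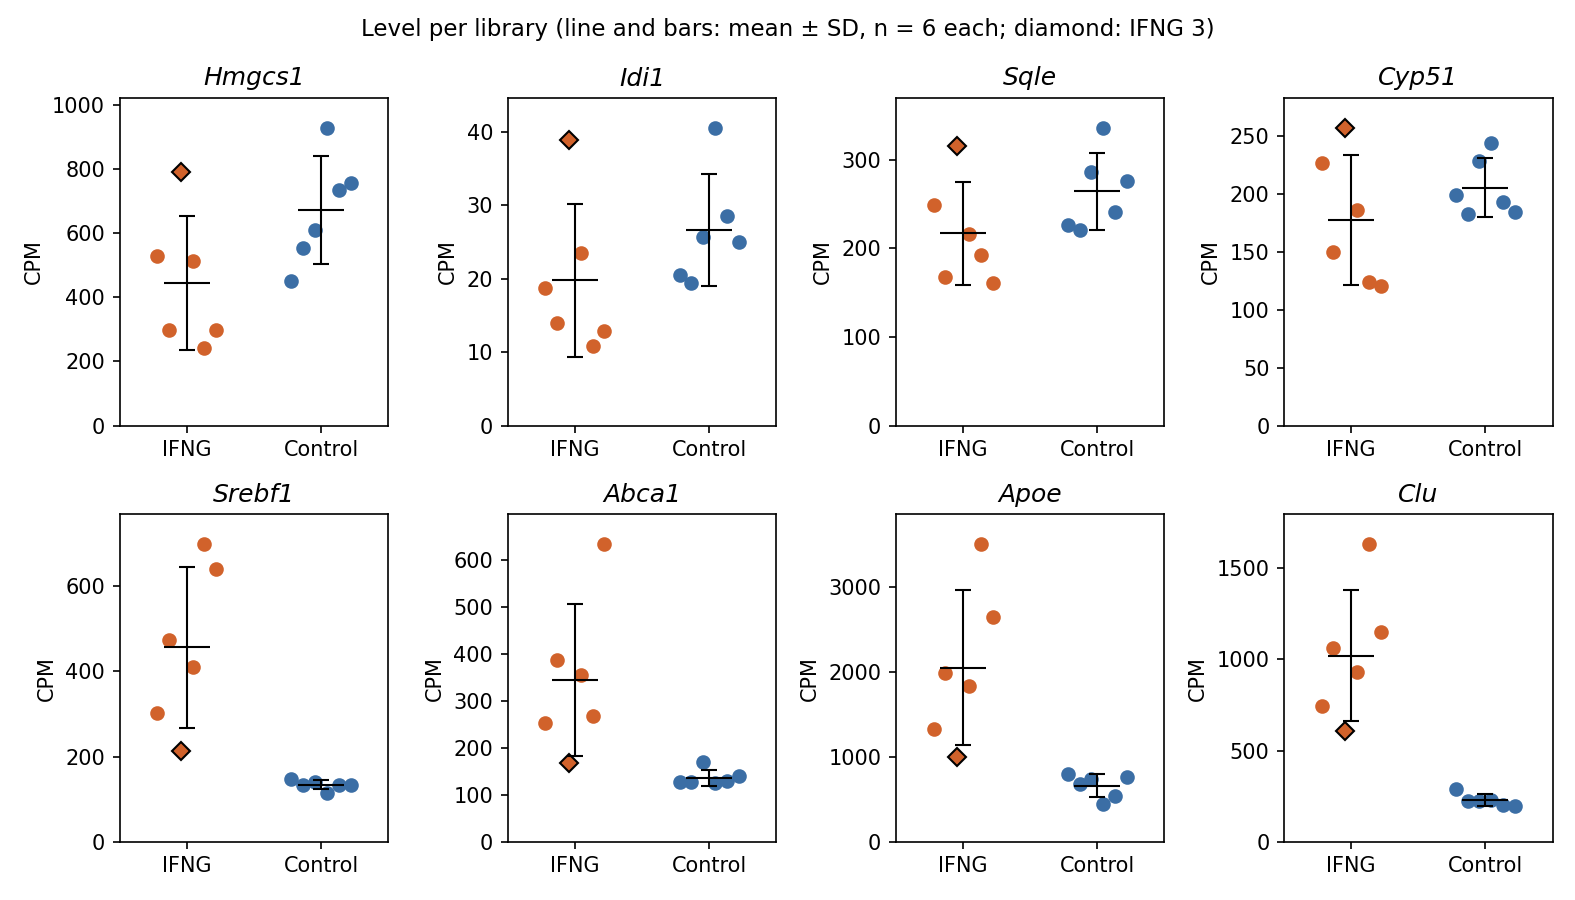
Level in each library, in CPM, of 4 synthesis enzymes (top row) and of Srebf1 and 3 export genes (bottom row), with IFNG left of Control; lines and bars give the mean ± SD (n = 6 each) and the diamond marks IFNG 3. IFNG 3 is the highest IFNG library for each enzyme (788.9 CPM for Hmgcs1, against 241.5 to 527.6 CPM in the other 5) and the lowest for each gene of the bottom row.

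Of 6 mevalonate enzymes, 0 passed in the edgeR test with all libraries, against 24.1% of all genes tested. Hmgcs1 (ENSMUSG00000093930, chromosome 13, 119690379 to 119708260, plus strand), which makes HMG-CoA, the precursor of mevalonate, stood at 241, 406 and 789 CPM in IFNG libraries and at 452, 672 and 928 CPM in Control libraries. The groups overlapped through IFNG 3, IFNG 1 and IFNG 4, and the log2 fold change was -0.60 ± 0.23 (edgeR adjusted p = 0.0698). It passed with limma-voom (adjusted p = 0.0354), with the replicate block (edgeR adjusted p = 0.0388) and when low genes were kept (edgeR adjusted p = 0.0189). The decarboxylase Mvd had a median of 21.2 CPM under IFNG, against 33.0 CPM in Control, a log2 fold change of -0.47 ± 0.21 (edgeR adjusted p = 0.112). Idi1, the isomerase that yields the active isoprene unit, had -0.43 ± 0.25, and the prenyl synthase Fdps had -0.29 ± 0.22. The kinases Mvk and Pmvk lay close to 0, at -0.15 ± 0.15 and -0.02 ± 0.14. All 6 were below 0, with a median of -0.36, but Pmvk was above 0 when library totals left out the genes called higher and in 6 other alternatives. The median was -0.22 without Control 4 and -0.64 without IFNG 3.

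For the squalene and sterol steps, the median log2 fold change of the 10 enzymes was -0.19. It was -0.12 without IFNG 2, -0.10 without IFNG 5, -0.08 without IFNG 6, -0.10 without Control 4 and -0.37 without IFNG 3. With library totals that left out the genes called higher it was -0.08. Sqle, which oxidises squalene, stood at 161, 204 and 315 CPM in IFNG libraries and at 221, 258 and 336 CPM in Control libraries. Its groups overlapped, and its log2 fold change was -0.29 ± 0.15 (edgeR adjusted p = 0.175). Cyp51, the sterol demethylase, stood at 121, 168 and 257 CPM in IFNG libraries and at 183, 196 and 245 CPM in Control libraries, a log2 fold change of -0.21 ± 0.16. Msmo1, Lss, which closes the sterol rings, Hsd17b7 and the squalene synthase Fdft1 had -0.34, -0.25, -0.22 and -0.17, with SE of 0.16 to 0.21. Sc5d and Dhcr7 were at -0.09 each, and Nsdhl and the isomerase Ebp were the 2 enzymes above 0, at 0.10 and 0.15. Adjusted p-values of these 10 ran from 0.175 to 0.737 in edgeR. Of the 16 enzymes, 14 lay below 0, or 11 when library totals left out the genes called higher, which moved the median of all genes by 0.11. Of the 16, 0 were lower in edgeR, against 9.79% of all genes tested. DESeq2 called 0 of the 16 lower and limma-voom 1, and 2 had an unadjusted p under 0.05 in edgeR. Exons of Ctsb and Akap9 overlap Fdft1 and Cyp51 on the opposite strand, and Ctsb was higher in IFNG libraries, by 0.90 ± 0.13.

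IFNG 3 was the highest IFNG library in all 16 enzymes and above every Control library in 10 of them. For Fdps it stood at 112.9 CPM, against 36.82 to 55.99 CPM in the other 5 IFNG libraries and 46.27 to 94.47 CPM in Control libraries. Insig1, Srebf2 and Scd1 were also highest in IFNG 3 among IFNG libraries, while Srebf1, Abca1, Apoe, Clu, Scd2, Fads1 and Fads2 were lowest in it. The same library had the lowest Ifng level, 4.98 CPM against 7.88 to 17.9 CPM in the other 5, and the lowest astrocyte marker sum, 5398 CPM against 6296 to 9099 CPM. Its total of 18173227 counts lay within the range of the others, and its mitochondrial share of 3.53% was below the 4.51 to 5.59% of the other IFNG libraries. The part of any of these in its enzyme levels was not tested.

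Without IFNG 3, 7 of the 16 enzymes were lower, and the median of the 16 was -0.39 on the log2 scale, against -0.21 with all libraries. That median was -0.12 without IFNG 5 and -0.12 without IFNG 6. The 7 were Hmgcs1, Mvd, Idi1, Fdps, Sqle, Lss and Hsd17b7, at -0.84, -0.69, -0.75, -0.59, -0.42, -0.39 and -0.46 (edgeR adjusted p from 0.00416 to 0.0492). With Scd1, 8 members were lower (27.6%), against 11% of all genes in that fit, and 8 were higher (27.6%), against 15.1%. In either direction 26.1% of all genes passed in that fit. IFNG 3 was singled out after the values of these same members were seen. It was the highest IFNG library in each of the 16 enzymes and in Scd1, so leaving it out lowers their fold changes by construction. The counts without it are therefore no separate support for a lower level. Without IFNG 3, 6 members (20.7%) did not overlap between the groups, against 16.8% of all genes. Leaving out any other single library gave 0 or 1 lower members, the 1 being Hmgcs1 without Control 1. Control 4 was the highest Control library in 9 of the 16 enzymes. With both IFNG 3 and Control 4 left out, a choice made after seeing the data, 6 members were lower, 5 of them enzymes. In that fit 1556 of all 15301 genes tested were lower. With IFNG 5 and Control 4 left out, 0 members were lower and the enzyme median was -0.08.

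**Figure D3:**
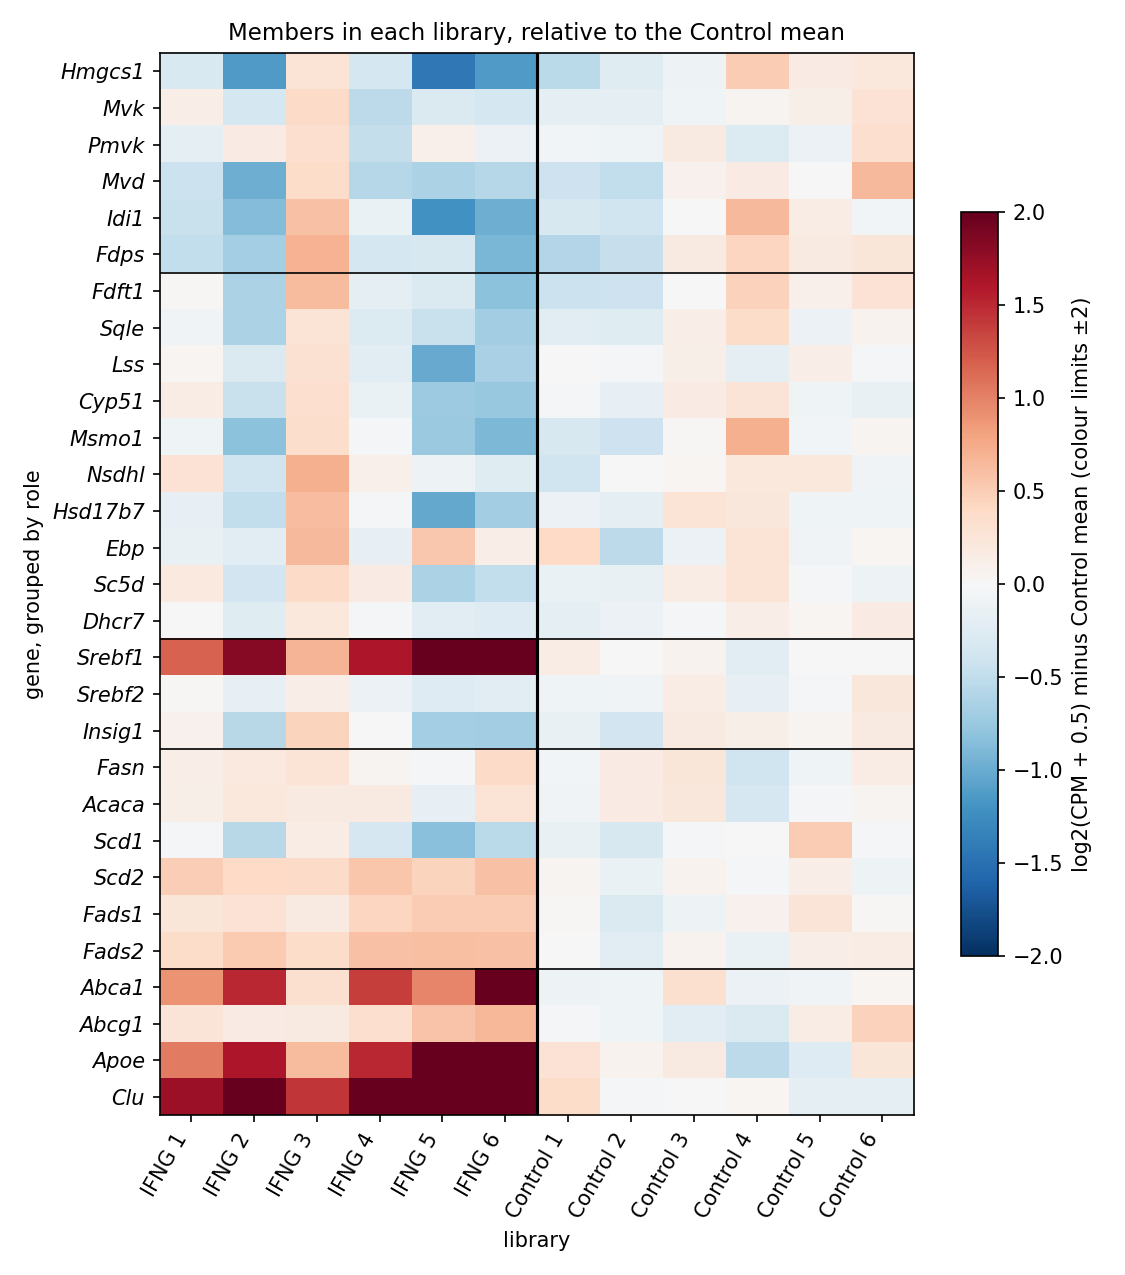
Colour gives log2(CPM + 0.5) minus the Control mean for each tested member (rows, grouped by role) in each library (columns, IFNG left of Control), with colours limited at ±2. Enzyme rows are mostly below the Control mean in IFNG 2, IFNG 5 and IFNG 6 and above it in IFNG 3, while Srebf1, Abca1, Apoe and Clu are above it in all 6 IFNG libraries.

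Synthesis and export were also set against each other within each library. The synthesis score, the mean log2 CPM of the 16 enzymes, was 5.78 ± 0.40 in IFNG and 6.04 ± 0.20 in Control libraries, and the export score, over 4 genes, was 8.57 ± 0.44 in IFNG and 7.26 ± 0.14 in Control libraries (SD, n = 6 each). The difference of synthesis minus export was -2.78 ± 0.83 in IFNG and -1.22 ± 0.30 in Control libraries, so the groups differed by -1.56. IFNG 3, at -1.42, lay within the Control range of -1.58 to -0.73, and the other 5 IFNG libraries lay below it, from -3.63 to -2.30. Within the IFNG group, the 2 libraries with the least Ifng, IFNG 3 and IFNG 1, had the highest synthesis scores (6.48 and 5.94) and the lowest export scores (7.90 and 8.24). They also had the lowest astrocyte marker scores, the mean log2 CPM of the 18 markers (6.57 and 6.76). IFNG 6 had the lowest synthesis score, the highest export score and the highest astrocyte marker score (7.02), at an Ifng level of 10.8 CPM. The part of Ifng level or of astrocyte RNA in these orders was not tested. The members were chosen with results known, so these scores carry no test.

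**Figure D4:**
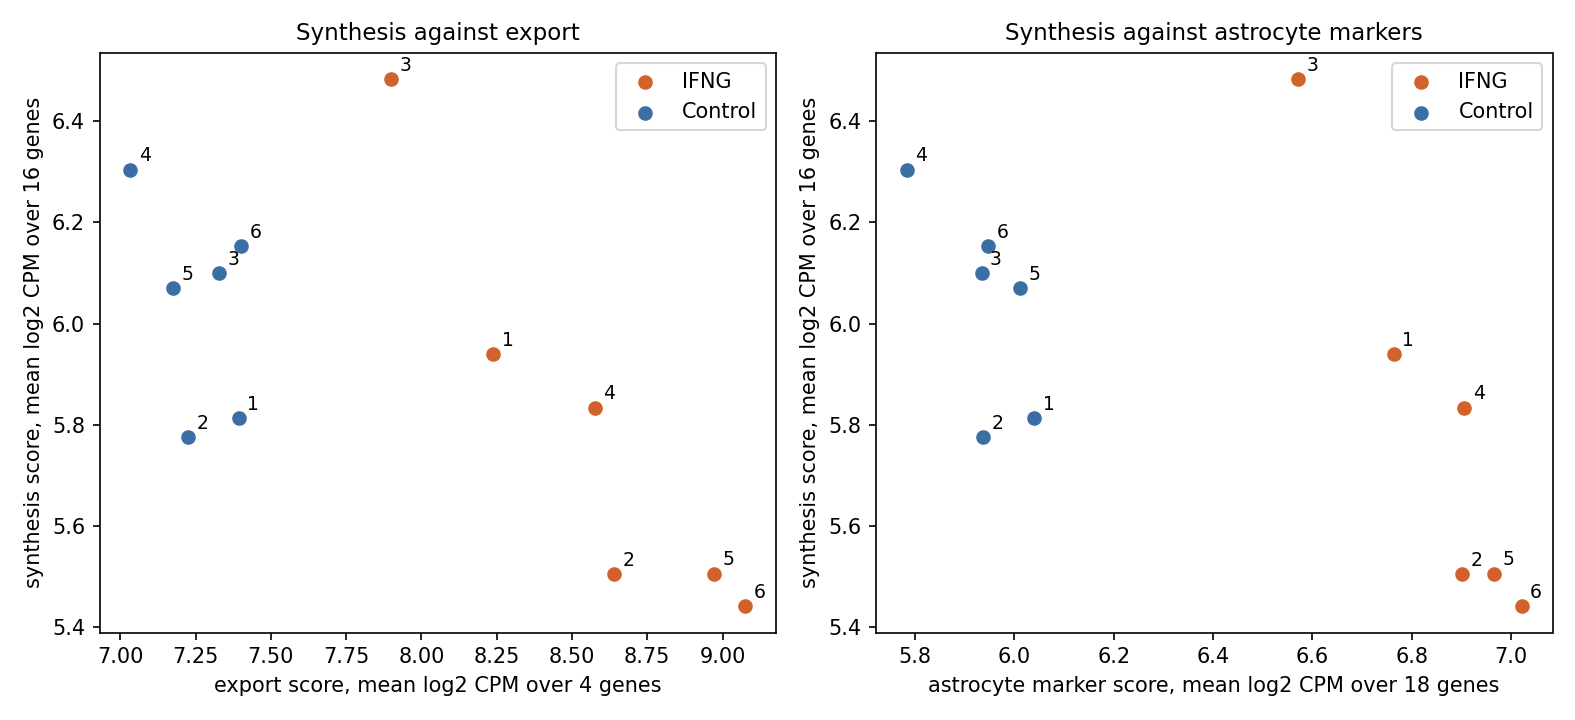
Synthesis score (vertical axis, mean log2 CPM over 16 enzymes) against the export score (left panel, over 4 genes) and against the astrocyte marker score (right panel, over 18 genes), 1 numbered point a library. IFNG libraries lie to the right of Control libraries in both panels, and IFNG 3 lies highest, at a synthesis score of 6.48.

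Of 6 fatty acid enzymes, 3 passed, against 24.1% of all genes tested. The desaturases Scd2, Fads1 and Fads2 were higher, whereas Fasn and Acaca, which build the saturated chain, and the desaturase Scd1 did not pass. Scd2, the main stearoyl-CoA desaturase of mouse brain, stood at 3554, 3784 and 4105 CPM in IFNG libraries and at 2494, 2773 and 3014 CPM in Control libraries. The groups did not overlap, and the log2 fold change was 0.47 ± 0.08 (edgeR adjusted p = 0.000126). Fads2, the first desaturase of polyunsaturated fatty acids, stood at 331, 376 and 389 CPM in IFNG libraries and at 220, 263 and 284 CPM in Control libraries, again without overlap (log2 fold change 0.50 ± 0.09; edgeR adjusted p = 0.000203). Fads1, its neighbour on chromosome 19, had 0.35 ± 0.10 (edgeR adjusted p = 0.0114), with a slight overlap of the groups. The 3 changes were 1.28-fold to 1.42-fold, and when tested against a fold change of 1.2 Fads1 no longer passed (edgeR adjusted p = 0.290).

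Scd1 stood at 202, 268 and 400 CPM in IFNG libraries and at 290, 356 and 515 CPM in Control libraries. Its log2 fold change of -0.35 ± 0.15 did not pass (edgeR adjusted p = 0.109) but did without IFNG 3, at -0.46 (0.0229). Scd1 and Scd2 are close paralogs, and reads they share may have been split or dropped. Fasn stood at 508, 582 and 676 CPM in IFNG libraries and at 394, 536 and 615 CPM in Control libraries, and Acaca at 124, 158 and 169 CPM in IFNG libraries and at 110, 140 and 162 CPM in Control libraries. Both pairs of groups overlapped, at 0.16 ± 0.11 and 0.13 ± 0.10 on the log2 scale (95% intervals -0.08 to 0.40 and -0.09 to 0.35). Fasn shares the LXR repeat letters printed above with Abca1, whose log2 fold change was 1.34.

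Ch25h (ENSMUSG00000050370, chromosome 19, 34473778 to 34475164, minus strand), a cholesterol hydroxylase that interferons induce in macrophages, was near the detection limit and was not tested. It had 25 counts over the 6 IFNG libraries and 8 over the 6 Control libraries. No library held more than 9 counts, and 2 IFNG and 4 Control libraries held 0. Adjusted for depth, the counts stood in a ratio of 2.72, and its exact 95% bounds of 1.19 and 6.98 cover counting error only. With no filter on low counts the edgeR adjusted p was 0.483. Gm26902, a transcript with 71 counts in all, overlaps it on the opposite strand.

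Other genes of sterol synthesis, from a list of 9, gave 0 higher and 0 lower in edgeR, against 14.3% and 9.79% of all genes tested. Of the 9, 8 were below 0, with a median log2 fold change of -0.16. DESeq2 called 1 of them lower and limma-voom 0, while 3 had an unadjusted p under 0.05 and a lower level. Without IFNG 3, 3 of the 9 were lower, against 11% of all genes in that fit.

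The LXR gene Nr1h2 and the partner gene Rxra were higher. Of 14 genes of sterol sensing and LXR, 5 were higher and 1 lower, against 14.3% higher and 9.79% lower over all genes tested. Nr1h2, the widely expressed LXR, averaged 62.6 ± 14.8 CPM in IFNG cultures, against 33.4 ± 4.22 CPM in Control cultures, without overlap (SD, n = 6 each; log2 fold change 0.91 ± 0.14; edgeR adjusted p = 5.36e-05). Its binding partner Rxra had 0.68 ± 0.12 (edgeR adjusted p = 0.000191). Both log2 fold changes lay within the range of the tested astrocyte markers, 0.34 to 1.77, and the part of astrocyte RNA in them was not tested. The pseudokinase gene Trib1 was lower, at -0.72 ± 0.16 (edgeR adjusted p = 0.00255). Rnf145, a ubiquitin ligase of the endoplasmic reticulum, stood at 0.17 ± 0.10 and did not pass.

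Of 10 tested genes of oxysterol handling and cholesterol esters, 5 were higher and 0 lower, against 14.3% and 9.79% of all genes tested. Plin2, which coats lipid droplets, averaged 18.2 ± 5.98 CPM in IFNG cultures, against 2.79 ± 0.862 CPM in Control cultures (SD over n = 6 each), a log2 fold change of 2.71 ± 0.24 (edgeR adjusted p = 2.72e-08). Soat1, which esterifies cholesterol for storage, averaged 107 ± 22.4 CPM in IFNG cultures, against 40.3 ± 4.02 CPM in Control cultures, and Cyp7b1, which hydroxylates oxysterols, 23.7 ± 5.15 CPM in IFNG cultures, against 7.82 ± 1.14 CPM in Control cultures. Their log2 fold changes were 1.40 ± 0.13 and 1.60 ± 0.15, and in all 3 genes the groups did not overlap. Cyp46a1, the neuronal cholesterol hydroxylase, stood at -0.24 ± 0.09 (edgeR adjusted p = 0.0675). It passed without IFNG 5, at -0.31 (0.00425), and in DESeq2 (0.0453).

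Other transport genes moved both ways. In the list of lipoprotein uptake and lysosomal release, 4 of 13 were higher and 1 lower, against 14.3% and 9.79% of all genes tested. Npc2, which carries cholesterol out of lysosomes, averaged 129 ± 35.3 CPM in IFNG cultures, against 63.8 ± 5.13 CPM in Control cultures (SD over n = 6 each; log2 fold change 1.01 ± 0.14). Lipa, the lysosomal ester hydrolase, had 0.96 ± 0.16 and Lrpap1, a chaperone of lipoprotein receptors, 0.39 ± 0.10 (edgeR adjusted p = 0.000118 and 0.00677). The 1 lower gene, named after its values were seen, was the receptor gene Vldlr, at -0.37 ± 0.10 (edgeR adjusted p = 0.0107). Of 9 tested genes of other export proteins and lipases, 3 were higher and 2 lower, against the same shares of all genes. Pltp, a phospholipid transfer protein, averaged 46.6 ± 15.6 CPM in IFNG cultures, against 4.08 ± 1.14 CPM in Control cultures, and Lcat, which esterifies cholesterol on particles, 8.40 ± 2.59 CPM in IFNG cultures, against 2.18 ± 0.969 CPM in Control cultures. An exon of Ctsa overlaps Pltp on the opposite strand, and Ctsa had 0.21 ± 0.14. The lipase gene Lpl was lower, at -0.77 ± 0.17 (edgeR adjusted p = 0.00183), and the transporter gene Abca3, at 0.22 ± 0.09, did not pass.

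In the remaining list of fatty acid synthesis and elongation, 5 of 19 were higher and 3 lower, against 14.3% and 9.79% of all genes tested. The median log2 fold change of the list was -0.03. Thrsp, a regulator of lipogenesis, had 13.4 to 42.3 CPM in IFNG libraries and 5.53 to 11.2 CPM in Control libraries, without overlap (log2 fold change 1.81 ± 0.26). Acsl6, which activates long fatty acids, had 0.44 ± 0.09, while Elovl2, which extends polyunsaturated chains, was lower, at -0.66 ± 0.10 (edgeR adjusted p = 0.000598 and 4.23e-05). Tecr, the reductase of elongation, stood at -0.03 ± 0.10, with a change of sign in 4 alternatives.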

How the data were processed

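Gene-level counts of poly(A) RNA-seq from 6 IFNG and 6 Control libraries were deposited by the authors as 1 table of whole numbers, not normalized. The submitters' processing notes name STAR 2.4, DESeq2, mm10 and GRCm39 without their roles, and the sources used here do not give the counting tool, its strand setting or its annotation. Symbols, exon lengths and gene positions came from GENCODE M21 (GRCm38), which matched 42462 of 43629 identifiers. Genes were tested with edgeR 4.0.16 (R 4.3.3) by the quasi-likelihood test, with TMM factors, filterByExpr, no block and Benjamini-Hochberg adjustment at 0.05 over 15241 genes. Standard errors are the log2 fold change divided by the root of F, and 95% intervals use 10 degrees of freedom. Scores are means of log2 CPM with a prior count of 2. DESeq2 1.42.0 and limma 3.58.1 were alternatives. The edgeR step was tested on simulated counts. Library totals ran from 13875435 to 34239380, which sets the counting precision of low genes such as Ch25h.

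The replicate numbers of the titles are not said to mark a shared animal, litter or day. Deviations of same-numbered libraries correlated by -0.00096 to 0.124, which cannot decide whether the numbers pair the libraries. No 2 libraries of a group were near-identical, with a chi-square per gene of at least 7.40. The members, companion lists and marker lists were chosen with earlier results of these data known. The text names all members and, per companion list, up to 3 genes of smallest p past the test and the most abundant tested gene that did not pass. Results of some listed genes are not reported here, but they stay in the tests and counts.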

Additional observations from a re-analysis of the deposited data

Results flagged for a closer look

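In 4 of 68 groups of 6 libraries, 1 library stood apart from the other 5 by Dixon's test, and chance alone gives about 1 in 20 groups. Fdps stood at 112.9 CPM in IFNG 3, against 36.82 to 55.99 CPM in the other IFNG libraries. Acaca stood at 123.8 CPM in IFNG 5, against 150.7 to 168.9 CPM in the others. Abca1 stood at 169.1 CPM in Control 3, against 124.9 to 139.5 CPM in the other Control libraries, and its log2 fold change stayed past the threshold when that library, or any other single one, was left out. Ch25h stood at 0.3169 CPM in Control 1, against 0 to 0.0969 CPM in the others, which rests on 6 counts.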

How the results depend on the processing

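Of 667 values of members under the alternatives, 629 kept their direction and their side of the threshold and 14 changed sign while past the threshold in neither fit (Pmvk, Nsdhl, Sc5d, Dhcr7 and Srebf2). A further 23 newly passed (9 of them without IFNG 3), 1 no longer passed, and 0 values past the threshold changed sign. Of 483 values of the named companion genes, 466 kept both, 5 changed sign while past the threshold in neither fit, 11 newly passed and Lrpap1 no longer passed against a fold change of 1.2 (adjusted p = 0.183). The number of members lower was 0, and became 1 with no filter on low counts, 1 with limma-voom and 1 with the replicate block. It ran from 0 to 8 when single libraries were left out, 8 being without IFNG 3, and was 6 without IFNG 3 and Control 4 together, a choice made after seeing the data. Under the replicate block 2 of 6 pairs correlated best with their own number, 8 members were higher, and Hmgcs1 (-0.69, adjusted p = 0.0388) and Abcg1 (0.37, adjusted p = 0.0153) newly passed. The number of members higher ran from 6 to 8. Over all genes 1492 were lower, but 750 with library totals that left out the genes called higher and 458 against a fold change of 1.2. Of all calls 59.4% were higher, against 51.3%, 79.8% and 76.5% with no composition factor, without the genes called higher and against a fold of 1.2. The cause of these differences was not tested. The difference of synthesis minus export between the groups ran from -1.83 to -1.39 when single libraries were left out. Depth limits Ch25h, with 33 counts in all.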
